A study of Mus musculus with 18 samples.

Results

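The 9 genes Cxcl1, Cxcl5, Cxcl12, Ccl2, Ccl7, Ccl11, Cx3cl1, Il6 and Csf1 encode chemokines and inflammatory cytokines that feeder fibroblasts are known to secrete. They were chosen by name, with earlier results of these data known, out of 19630 genes in the deposited table, and the transcripts of each gene were summed. All 9 passed the filter on low counts, which left 15389 genes. Messenger RNA was sequenced in 18 libraries of mouse cultures, 3 in each of 6 groups. Embryonic stem (ES) cells, the pluripotent cells of the early embryo in culture, were grown without feeders but with ATN161, a compound that blocks integrin α5β1 ("ATN161 cultures"), or on control feeders that were then removed ("feeder-removed cultures"). They were also grown on feeders labelled p53-defective ("p53-defective co-cultures") and on control feeders ("control co-cultures"), and the labels give the RNA of these libraries as coming from ES cells and embryonic fibroblasts together. The feeders, embryonic fibroblasts that support ES cells, were sequenced without ES cells as p53-defective feeders and as control feeders. The labels do not give the change in p53, the strain or ES cell line, the dose of ATN161, the time in culture or how feeders were removed. They also do not say whether the 3 replicates were separate cultures, so the p-values below measure only the spread between these libraries.

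Chemokines are small secreted proteins that attract leukocytes through G protein-coupled receptors, and their families are named after the spacing of their first cysteines. Cxcl1 and Cxcl5 attract neutrophils through Cxcr2. Cxcl12 holds hematopoietic and germ cells in their niches through Cxcr4 and is taken up by the scavenger receptor Ackr3. Ccl2 and Ccl7 attract monocytes through Ccr2, and Ccl11, also called eotaxin, attracts eosinophils through Ccr3. Cx3cl1, also called fractalkine, is made as a membrane protein that binds Cx3cr1 and can be shed. Il6 is an inflammatory cytokine that signals through Il6ra and Il6st, and Csf1 is the growth factor of macrophages and acts through Csf1r. Fibroblasts are a known source of these proteins, and NF-κB, a transcription factor switched on by inflammatory signals, is a known inducer of Cxcl1, Cxcl5, Ccl2 and Il6.

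The groups differed in their marker genes, and these values stand beside every result below. Library totals were 15.12 to 19.83 M (mega) counts. Trp53, the p53 gene, was at 326, 317 and 244 CPM (counts per M, scaled between libraries) in p53-defective feeders, against 123, 124 and 112 CPM in control feeders, so its RNA was present under both labels. The p53 targets Cdkn1a, a cell cycle inhibitor, and Mdm2, the inhibitor of p53, averaged 260 and 164 CPM in p53-defective feeders, against 664 and 437 CPM in control feeders. The 18 fibroblast markers summed to 5764 to 8077 CPM in p53-defective feeders, against 35213 to 42505 CPM in control feeders, and of the matrix genes among them Lum averaged 0.0601 CPM, against 271 CPM, and Postn 3.06 CPM, against 5915 CPM. The 14 mesothelial markers summed to 1630 to 2518 CPM in p53-defective feeders, against 69.7 to 81.8 CPM in control feeders, and the 10 endothelial markers to 9.32 to 11.1 CPM, against 47.6 to 56.7 CPM. The 18 macrophage markers summed to 12.7 to 17.2 CPM in p53-defective feeders, with 11 of them at 0, Ptprc and Adgre1 among these, against 156 to 213 CPM in control feeders, with 0 of them at 0. The 16 ES cell markers summed to 362 to 500 CPM in p53-defective co-cultures, against 4203 to 4383 CPM in control co-cultures. The 77 genes taken as feeder-specific, which were at 10 CPM or more in both feeder groups and there 8-fold or more above the ATN161 and the feeder-removed cultures, included 0 of the 9, and only Csf1 of the 9 had its highest group mean in feeders without ES cells. The 77 stood at a median of 51.7 to 58.9% of their level in p53-defective feeders in the p53-defective co-cultures. In the other cultures they stood at 4.14 to 4.74% (ATN161), 6.93 to 7.68% (feeders removed) and 10.8 to 11.9% (control co-cultures) of their level in control feeders. The part of these differences in the results on the 9 genes was not tested, and in RNA from whole cultures fewer cells of a type and less RNA per cell cannot be told apart.

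Of the 9 genes, 3 lie side by side on chromosome 11 of GRCm38 and 2 near each other on chromosome 5. Ccl2 (Entrez 20296; 11:82035577-82037452), Ccl7 (20306; 11:82045712-82047525) and Ccl11 (20292; 11:82057832-82062955) follow each other with gaps of 8.3 and 10.3 kb and no coding gene between them. Cxcl5 (20311; 5:90759298-90761625) and Cxcl1 (14825; 5:90891245-90893121) are 129.6 kb apart, with 4 other chemokine genes (Ppbp, Pf4, Cxcl3 and Cxcl15) between them. The remaining genes are single: Il6 (16193; 5:30013114-30019975), Cxcl12 (20315; 6:117168535-117181368), Cx3cl1 (20312; 8:94772180-94782427) and Csf1 (12977; 3:107741048-107760469).

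The promoters of Cxcl1 and Il6, whose levels over the 6 groups were much alike, and of Cxcl12, whose levels ran another way, are shown from the RefSeq table (GRCm38.p6, 250 bases before the gene's start, on the gene's strand). Capitals mark matches of the NF-κB motif GGGNNNTTCC on either strand.
Cxcl1 (chr5:90890995-90891244, plus strand): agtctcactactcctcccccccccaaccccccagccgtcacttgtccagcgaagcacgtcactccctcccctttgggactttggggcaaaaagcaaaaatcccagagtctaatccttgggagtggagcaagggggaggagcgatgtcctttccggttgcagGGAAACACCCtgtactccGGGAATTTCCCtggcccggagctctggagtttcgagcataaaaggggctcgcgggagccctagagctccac
Il6 (chr5:30012864-30013113, plus strand): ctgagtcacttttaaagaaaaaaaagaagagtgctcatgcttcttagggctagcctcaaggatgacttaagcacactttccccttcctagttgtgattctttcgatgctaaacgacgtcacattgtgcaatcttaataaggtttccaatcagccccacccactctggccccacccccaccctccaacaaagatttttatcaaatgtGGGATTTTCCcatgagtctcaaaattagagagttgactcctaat
Cxcl12 (chr6:117168285-117168534, plus strand): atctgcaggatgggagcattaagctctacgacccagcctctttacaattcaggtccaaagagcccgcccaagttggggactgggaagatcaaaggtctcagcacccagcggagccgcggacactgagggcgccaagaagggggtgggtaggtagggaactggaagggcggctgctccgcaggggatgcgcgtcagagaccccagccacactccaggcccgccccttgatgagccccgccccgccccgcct
Of the 9 genes, 5 had an entry in that table (the 3 above, Csf1 and Cx3cl1). Cxcl1 held 3 matches, starting 89, 71 and 70 bases before the gene, of which the last 2 overlap. Il6 held 1 match, 44 bases before the gene, and Csf1 held 1, 154 bases before it, while Cxcl12 and Cx3cl1 held 0. In its levels over the 6 groups, Csf1 was nearer to Cxcl12 (root mean square difference of scaled group means 0.718) than to Cxcl1 (1.14) or Il6 (1.09). A link between matches and levels was not tested. Of 32851 promoters of the same length, 4.65% held a match. The Il6 promoter held 3 CpG dinucleotides, against 10 in Cxcl1, 10 in Csf1, 14 in Cxcl12 and 14 in Cx3cl1 (median over all promoters 6). A match is a run of letters and not a measured binding site.

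On a scale per transcript length (deposited TPM, transcripts per M), the gene with the highest level among the 9 changed with the culture. Cxcl12 was highest in the p53-defective co-cultures (618 ± 13 TPM, mean ± SD, n = 3 here and below), in p53-defective feeders (174 ± 101 TPM) and in control feeders (789 ± 99 TPM). Ccl7 was highest in ATN161 cultures (77.9 ± 11 TPM) and in control co-cultures (404 ± 9.3 TPM). Ccl2 was highest in feeder-removed cultures (490 ± 20 TPM). Il6 was the lowest or near the lowest throughout, from 0.563 TPM with ATN161 to 5.32 TPM in control co-cultures. All levels from here on are CPM, which are compared between groups and not between genes.

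The neutrophil chemokines Cxcl1 and Cxcl5 were both highest in the control co-cultures but parted in the feeders. Cxcl1 was at 2.58, 3.24 and 4.52 CPM with ATN161, 36.8, 30.7 and 37.6 CPM after feeder removal, 52.2, 66.4 and 46.5 CPM in p53-defective co-cultures and 78.8, 77.2 and 73.8 CPM in control co-cultures. In feeders alone it was at 19.4, 19 and 20.6 CPM in the p53-defective group, against 1.98, 1.79 and 2.49 CPM in the control group. The 6 groups did not overlap, and control feeders were the lowest of them. Cxcl5 was at 10.3, 10.2 and 10.5 CPM with ATN161, 78.4, 63.9 and 86.4 CPM after feeder removal, 8.43, 8.86 and 5.7 CPM in p53-defective co-cultures and 183, 188 and 195 CPM in control co-cultures. Its level in feeders alone was 0.19, 0.289 and 0.92 CPM in the p53-defective group, against 28.2, 30 and 27.7 CPM in the control group. Again the 6 groups did not overlap, but here the p53-defective feeders were the lowest and the p53-defective co-cultures came below the ATN161 cultures.

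Cxcl12, the niche chemokine, had its highest levels in p53-defective co-cultures and in both kinds of feeders alone. It was at 19.9, 20.2 and 21.1 CPM with ATN161, 45.9, 48.9 and 58.4 CPM after feeder removal, 1243, 1333 and 1163 CPM in p53-defective co-cultures and 67.1, 65.1 and 69.6 CPM in control co-cultures. Without ES cells, the feeders had it at 158, 170 and 406 CPM in the p53-defective group, against 802, 818 and 987 CPM in the control group. The 6 groups did not overlap, although replicate 3 of the p53-defective feeders stood well above the other 2. The p53-defective co-cultures were thus above both kinds of feeders alone, and the control co-cultures below both.

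Ccl2 and Ccl7, the monocyte chemokines, were high in the control co-cultures and after feeder removal, and Ccl11, the eosinophil chemokine, was highest after feeder removal. Ccl2 was at 23.4, 25.2 and 30.1 CPM with ATN161, 165, 162 and 161 CPM after feeder removal, 35.8, 37.1 and 27 CPM in p53-defective co-cultures and 113, 113 and 108 CPM in control co-cultures. In feeders alone it was at 26, 25.8 and 27.5 CPM in the p53-defective group, against 29.9, 30.9 and 33.9 CPM in the control group. Of the 6 groups, 4 therefore lay close together at the low end, where the p53-defective co-cultures overlapped the control feeders and the p53-defective feeders overlapped the ATN161 cultures. Ccl7 was at 25.1, 28.9 and 34.2 CPM with ATN161, 114, 110 and 129 CPM after feeder removal, 35.6, 41 and 30.6 CPM in p53-defective co-cultures and 125, 127 and 132 CPM in control co-cultures. Its level in feeders alone was 6.79, 6.64 and 9.5 CPM in the p53-defective group, against 44.8, 43.8 and 56.8 CPM in the control group. The feeder-removed cultures overlapped the control co-cultures, and the ATN161 cultures overlapped the p53-defective co-cultures. Ccl11 was at 3.69, 4.05 and 5.25 CPM with ATN161, 75.2, 71.4 and 54.6 CPM after feeder removal, 0.243, 0.499 and 0.238 CPM in p53-defective co-cultures and 16.3, 17.5 and 15.7 CPM in control co-cultures. Feeders without ES cells gave 2 counts in all in the p53-defective group, 0 of them in replicate 1, against 79 counts (1.41, 1.39 and 1.74 CPM) in the control group. None of the 6 groups overlapped, and the p53-defective feeders and p53-defective co-cultures were the lowest.

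The membrane chemokine Cx3cl1 was higher in both co-cultures than in the other 4 groups. It was at 8.24, 7.7 and 10.2 CPM with ATN161, 6.42, 5.71 and 8.12 CPM after feeder removal, 24.1, 23.5 and 28.2 CPM in p53-defective co-cultures and 20, 17.1 and 19.4 CPM in control co-cultures. In feeders alone it was at 4.25, 5.31 and 8.64 CPM in the p53-defective group, against 10.1, 11.6 and 9.5 CPM in the control group. Both co-cultures stood above the 4 groups of a single cell type by label, and among those 4 the neighbours in order overlapped. Control feeders nonetheless did not overlap the feeder-removed cultures or the p53-defective feeders, which were both lower.

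The cytokine Il6 was low in every group, and Csf1 was the more even of the pair. Il6 was at 0.354, 0.355 and 0.364 CPM with ATN161, 1.81, 1.82 and 2.38 CPM after feeder removal, 4.24, 3.43 and 3.39 CPM in p53-defective co-cultures and 2.8, 3.24 and 2.43 CPM in control co-cultures. Its level in feeders alone was 1.65, 2.43 and 0.858 CPM in the p53-defective group, against 0.566, 0.289 and 0.174 CPM in the control group. It was highest in the 2 co-cultures, which did not overlap, while the feeder-removed cultures overlapped the p53-defective feeders and the ATN161 cultures overlapped the control feeders. Csf1 was at 47.1, 44 and 51 CPM with ATN161, 138, 144 and 143 CPM after feeder removal, 188, 173 and 187 CPM in p53-defective co-cultures and 230, 220 and 212 CPM in control co-cultures. Without ES cells, the feeders had it at 280, 293 and 391 CPM in the p53-defective group, against 299, 316 and 345 CPM in the control group. It was highest in the 2 feeder groups, which overlapped, and lowest with ATN161.

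**Figure D1:**
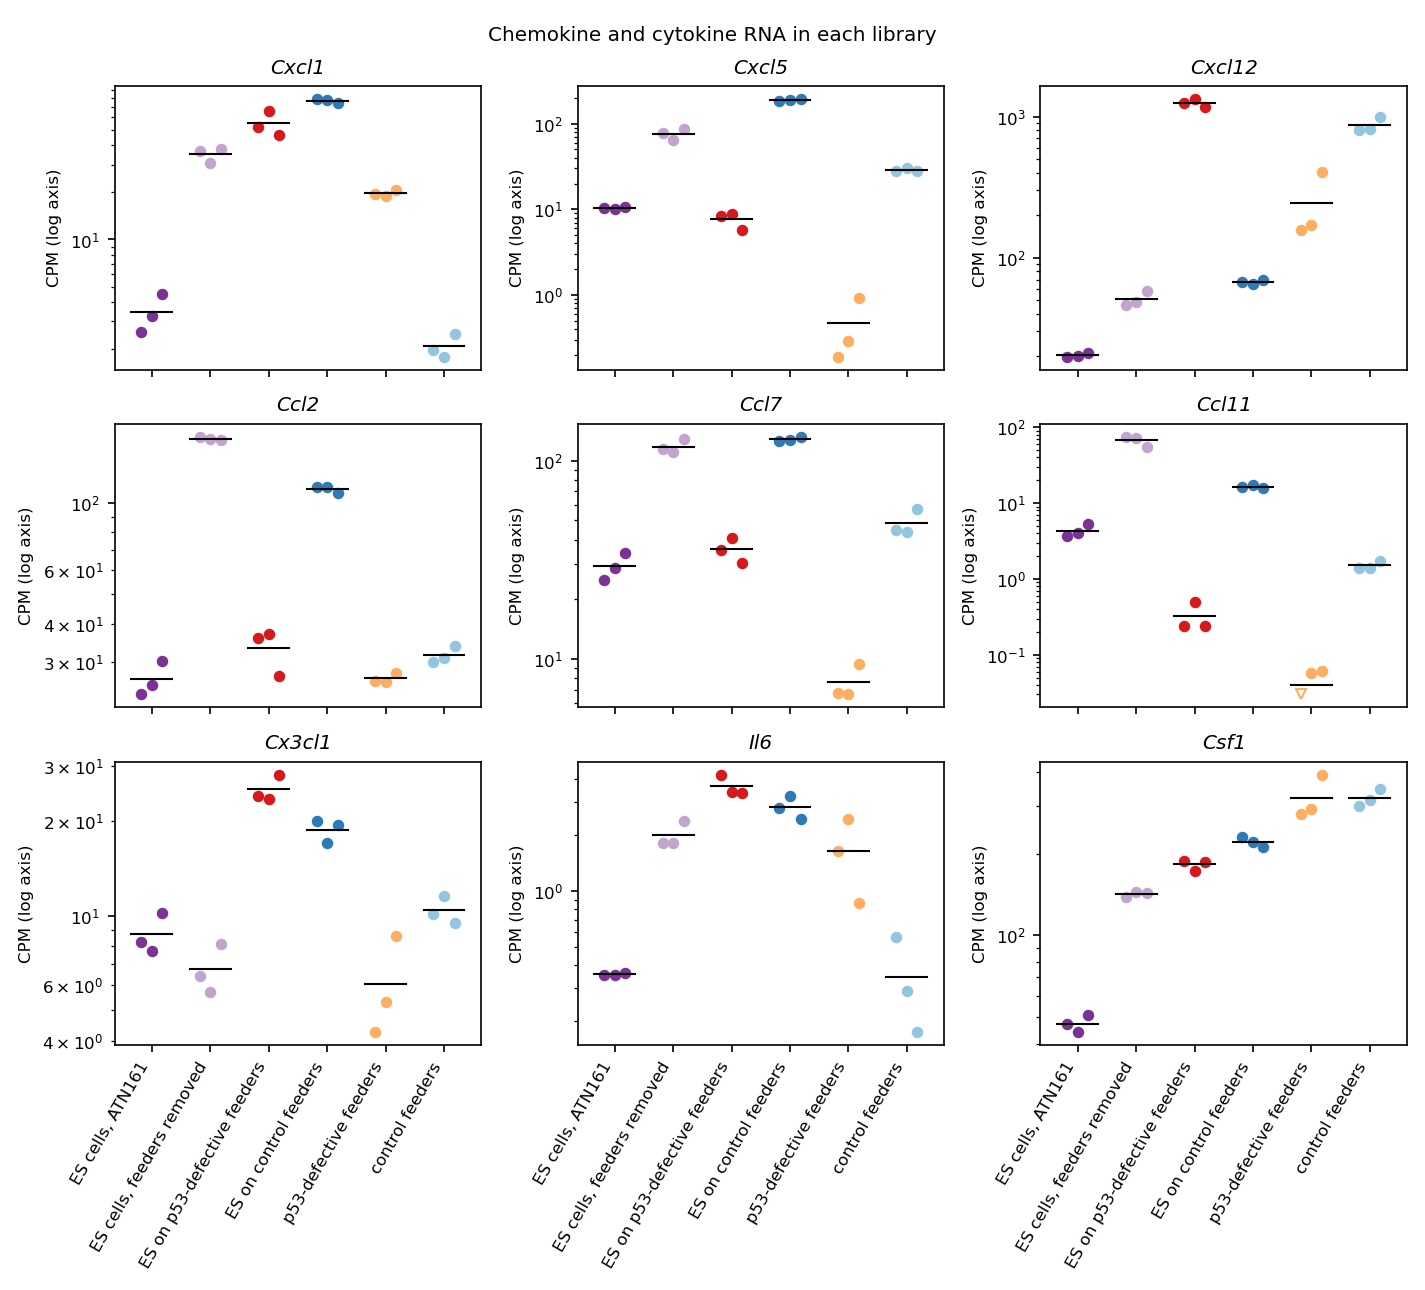
CPM of each of the 9 genes in each library (log axes), with groups on the x axis, 1 point per library and a bar at the mean of 3; the open triangle stands for a library with 0 counts. Cxcl1, Cxcl5, Ccl2, Ccl7 and Ccl11 are high in control co-cultures or after feeder removal, Cxcl12 is highest in p53-defective co-cultures at 1163 to 1333 CPM, and Csf1 is lowest with ATN161 at 44 to 51 CPM.

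The comparison of the feeders alone asks how secretion genes differ before ES cells are added. In p53-defective feeders the neutrophil chemokine Cxcl1 rose (log2 fold change 3.23 ± 0.18, SE, adjusted p = 2.41e-13), as did Il6 (2.24 ± 0.39, adjusted p = 1.91e-05). Cxcl5 fell (-5.92 ± 0.24, adjusted p = 6.67e-16), and so did Ccl7 (-2.66 ± 0.15, adjusted p = 2.04e-13), Cxcl12 (-1.83 ± 0.26, adjusted p = 1.41e-05) and Cx3cl1 (-0.77 ± 0.19, adjusted p = 0.000753). Adjusted p-values are Benjamini-Hochberg values over the 15389 genes tested, from edgeR's quasi-likelihood test, and a gene was called below 0.05. Ccl11 also fell (-5.00 ± 0.57, adjusted p = 4.58e-08), and its 2 counts against 79 give a ratio per count total of 0.0268 (exact 95% interval 0.00319 to 0.1, counting error only). Cxcl5 stood at -6.85 without replicate 3 of the p53-defective feeders. Ccl2 passed narrowly (-0.26 ± 0.10, adjusted p = 0.0295), a call that was lost under 9 of 14 alternatives (adjusted p from 0.0199 to 0.205). Csf1 did not pass (0.01 ± 0.09, adjusted p = 0.982). Thus 2 of the 9 were higher and 6 lower, where 35.9% of all genes tested were higher and 38.4% lower, so most genes changed between these feeders. The median log2 fold change was -0.77 over the 9 and -0.01 over all genes tested.

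The same comparison in the presence of ES cells asks how the feeder label bears on these genes in co-culture. In p53-defective co-cultures, relative to control co-cultures, Cxcl12 was higher (4.21 ± 0.29, adjusted p = 2.39e-09) and Cxcl5 (-4.62 ± 0.14, adjusted p = 6.82e-18) and Ccl11 (-5.64 ± 0.24, adjusted p = 1.14e-15) were lower. These 3 kept their direction under the 3 scalings used, of which 1 for each gene could not turn it. The co-cultures differed in their ES cell markers and in the level of feeder-specific genes relative to feeders alone. The 432 genes taken as ES-specific, by the converse of the feeder-specific rule, stood at a median of 7.12 to 8.51% in p53-defective co-cultures. In control co-cultures they stood at 79.9 to 80.4%, both relative to their level in feeder-removed cultures. Whether the co-cultures held different shares of feeder and ES cell RNA was not tested. The libraries were also scaled on the 77 feeder-specific genes, which shifted the median log2 fold change over all genes, -0.18 before, to -2.64. Scaling on the 432 ES-specific genes moved it to 3.20. Under these 2 scalings, Cxcl12 stood at 1.75 and 7.60, Cxcl5 at -7.08 and -1.24 and Ccl11 at -8.09 and -2.29. Feeder-specific scaling, which lowered the values, could turn only Cxcl12 of these 3 genes and adds no support to Cxcl5 and Ccl11. ES-specific scaling, which raised the values, could turn only Cxcl5 and Ccl11 and adds no support to Cxcl12. The other 6 genes changed direction with the scaling. Ccl2 (-1.74 ± 0.10, adjusted p = 1.66e-13) and Ccl7 (-1.84 ± 0.12, adjusted p = 4.18e-12) were lower, and with feeder-specific scaling stood at -4.19 and -4.30, but with ES-specific scaling at 1.64 and 1.54. Cxcl1 (-0.48 ± 0.12, adjusted p = 0.000616) was lower, at -2.93 with feeder-specific scaling and at 2.90 with ES-specific scaling. Cx3cl1 (0.43 ± 0.15, adjusted p = 0.0138) was higher, but stood at -2.04 with feeder-specific scaling. Csf1 (-0.27 ± 0.10, adjusted p = 0.0115) was lower, a call lost under 6 of 14 alternatives that did not change the genes scaled on (adjusted p from 0.00678 to 0.232), and stood at 3.12 with ES-specific scaling. Il6 did not pass (0.38 ± 0.22, adjusted p = 0.114) and stood at -2.07 with feeder-specific and 3.77 with ES-specific scaling. In all 2 of the 9 were higher and 6 lower, against 36.6% and 46.7% of all genes tested. This split became 1 higher and 8 lower with feeder-specific scaling, where 434 of 15389 genes were higher and 14366 lower. It became 7 higher and 2 lower with ES-specific scaling, where 13504 genes were higher and 411 lower. The 9 genes' groups all failed to overlap, as did those of 84.4% of all genes. Beside these results, the fibroblast markers summed to 17098 to 24472 CPM in p53-defective co-cultures, against 7351 to 7721 CPM in control co-cultures, and the mesothelial markers to 2357 to 2444 CPM, against 55.7 to 58.2 CPM. Of the 17 macrophage markers tested, 4 were higher and 4 lower (3 and 8 with feeder-specific, 12 and 1 with ES-specific scaling). They summed to 48.8 to 52.7 CPM in p53-defective co-cultures, against 110 to 120 CPM in control co-cultures, a sum in which Laptm5 alone, singled out after its values were seen, averaged 4.07 CPM, against 96.8 CPM. The part of these markers in the results was not tested.

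**Figure D2:**
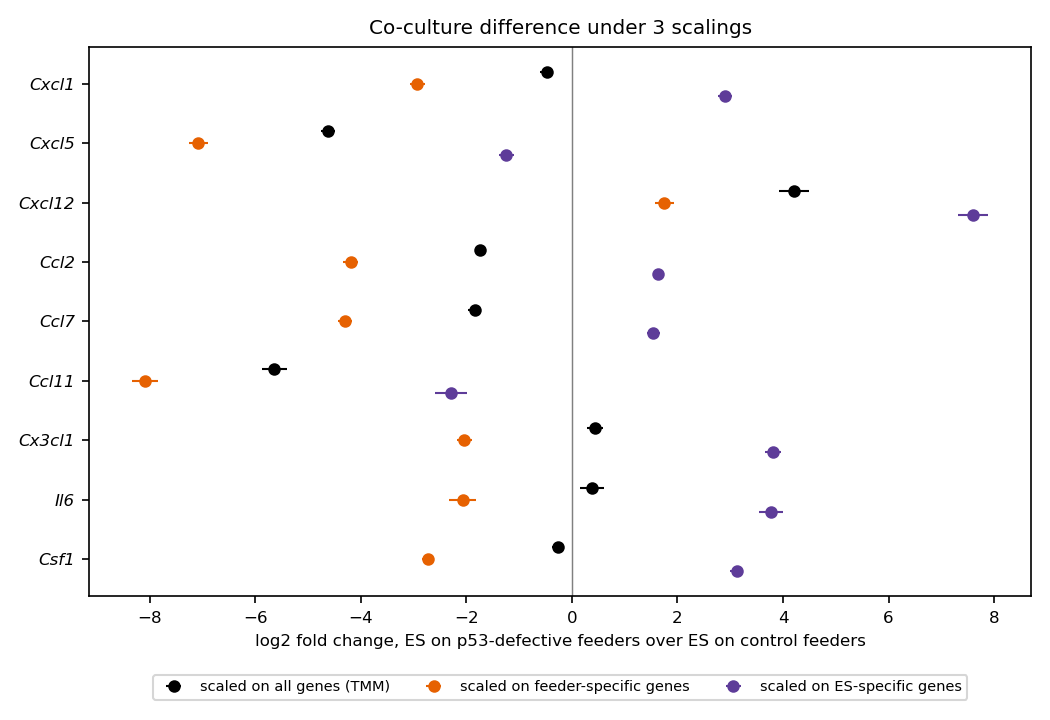
Log2 fold change of the 9 genes in p53-defective co-cultures over control co-cultures (x axis) under 3 scalings, with standard errors as bars. Cxcl12 lies right of 0 and Cxcl5 and Ccl11 lie left of it under all 3, and the other 6 genes lie on different sides under different scalings.

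The effect of feeder type in co-culture was tested against its effect in feeders alone, a comparison of contrasts that share no library. Cxcl12 showed the widest gap, 6.04 ± 0.39 (adjusted p = 1.5e-09), being lower in p53-defective feeders and higher in p53-defective co-cultures. Cxcl1 showed the reverse order, -3.71 ± 0.22 (adjusted p = 6.71e-13), and Il6 (-1.86 ± 0.46, adjusted p = 0.000923) and Ccl2 (-1.49 ± 0.14, adjusted p = 2.47e-09) also had the lower value in co-culture. Of the others, Cxcl5 (1.3 ± 0.38, adjusted p = 0.00363), Cx3cl1 (1.2 ± 0.24, adjusted p = 0.000115) and Ccl7 (0.82 ± 0.19, adjusted p = 0.000598) passed with a positive value that turned to -0.91, -0.98 and -1.37 with feeder-specific scaling, which shifted the median over all genes from 0.04 to -2.18. Ccl11 (-0.64 ± 1.70, adjusted p = 0.761) and Csf1 (-0.28 ± 0.13, adjusted p = 0.066) did not pass. Thus 4 of the 9 were positive and 3 negative, against 38.8% and 34.8% of all genes. With feeder-specific scaling 1 was positive and 6 negative, where 995 of 15389 genes were positive and 11805 negative. Beside this, all 18 fibroblast markers and 15 of 17 macrophage markers tested had a positive difference (14 and 13 with feeder-specific scaling, and 1 fibroblast marker a negative one), and their part was not tested.

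Adding ES cells was compared with each kind of feeders alone. In p53-defective co-cultures, relative to p53-defective feeders, 8 of the 9 genes were higher and Csf1 was lower, against 46.7% and 33.0% of all genes tested. Cxcl5 rose most (4.02 ± 0.29, adjusted p = 2.32e-11; 4.94 without replicate 3 of the p53-defective feeders). Ccl11 rose as well (2.81 ± 0.84, adjusted p = 0.00423), on 16 counts against 2 (ratio 8.01, exact 95% interval 1.88 to 71.8), as did Cxcl12 (2.35 ± 0.27, adjusted p = 1.01e-06), Ccl7 (2.22 ± 0.15, adjusted p = 6.96e-12) and Cx3cl1 (2.06 ± 0.18, adjusted p = 3.42e-10). Cxcl1 (1.48 ± 0.13, adjusted p = 3.07e-10) and Il6 (1.15 ± 0.25, adjusted p = 0.000251) rose by less. Ccl2 (0.33 ± 0.10, adjusted p = 0.00543) passed although the groups overlapped, and did not pass when only the 2 groups were fitted (adjusted p = 0.14, the highest of a range from 3.4e-06). Feeder-specific scaling shifted the median over all genes upward, from 0.27 to 1.0. It could therefore not turn these 8 genes, which were already higher, and adds no support to them. Csf1 (-0.81 ± 0.10, adjusted p = 6.29e-08) moved to -0.07 and no longer passed under it.

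In control co-cultures, relative to control feeders, 7 of the 9 genes were higher and 2 lower, against 44.3% and 39.9% of all genes. Cxcl1 rose most (5.19 ± 0.17, adjusted p = 6.63e-18), followed by Ccl11 (3.44 ± 0.18, adjusted p = 2.74e-14), Il6 (3.01 ± 0.34, adjusted p = 3.37e-08) and Cxcl5 (2.72 ± 0.12, adjusted p = 3.23e-15). Ccl2 (1.82 ± 0.10), Ccl7 (1.4 ± 0.12) and Cx3cl1 (0.86 ± 0.16) rose too, with adjusted p from 6.5e-14 to 4.73e-05. Cxcl12 was lower (-3.69 ± 0.28, adjusted p = 8.77e-09), and remained so at -0.76 with feeder-specific scaling, which shifted the median over all genes from 0.08 to 3.0. Csf1 was lower (-0.54 ± 0.09, adjusted p = 1.89e-05) but stood at 2.39 with feeder-specific scaling. With that scaling 8 of the 9 were higher, where 14555 of 15389 genes tested were higher and 281 lower. Beside this, all 18 fibroblast markers and 15 of 17 macrophage markers tested were lower in control co-cultures than in control feeders, with C1qb, C1qc and Tyrobp at 0 counts in the co-cultures. With feeder-specific scaling, 11 fibroblast markers were higher and 3 lower, and 6 macrophage markers were higher and 9 lower.

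The next comparison asks how these genes differ once the feeders are removed. In feeder-removed cultures, relative to control co-cultures, Ccl11 was higher (2.02 ± 0.12, adjusted p = 8.33e-11), as was Ccl2 (0.55 ± 0.09, adjusted p = 3.26e-05). Cx3cl1 (-1.48 ± 0.17, adjusted p = 3.34e-07), Cxcl5 (-1.31 ± 0.12, adjusted p = 8.85e-09), Cxcl1 (-1.13 ± 0.12, adjusted p = 7.88e-08) and Csf1 (-0.64 ± 0.10, adjusted p = 8.97e-06) were lower. With feeder-specific scaling, which shifted the median over all genes from -0.01 to 0.86, Csf1 turned to 0.23 and Cxcl1, at -0.27, no longer passed (adjusted p = 0.0702). Il6 (-0.49 ± 0.24, adjusted p = 0.0893), Cxcl12 (-0.40 ± 0.27, adjusted p = 0.235) and Ccl7 (-0.12 ± 0.12, adjusted p = 0.386) did not pass, and turned to 0.36, 0.46 and 0.74 with that scaling. Ccl11 and Ccl2 stood at 2.89 and 1.41 with it. Thus 2 of the 9 were higher and 4 lower, against 25.5% and 26.5% of all genes. With feeder-specific scaling 5 were higher and 2 lower, where 11942 of 15389 genes tested were higher and 343 lower. Beside this, 11 of 18 fibroblast markers were lower and 1 higher, and with feeder-specific scaling 10 were higher and 0 lower.

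With ATN161 in place of feeders, all 9 genes were lower than in control co-cultures, against 28.0% of all genes tested (33.6% were higher), and the 2 groups overlapped for none of the 9, where they did not overlap for 74.0% of all genes. The median log2 fold change was -2.12 over the 9 and 0.07 over all genes tested. Cxcl1 (-4.47 ± 0.15, adjusted p = 4.71e-16) and Cxcl5 (-4.19 ± 0.14, adjusted p = 2.33e-16) fell most, followed by Il6 (-2.96 ± 0.33, adjusted p = 9.42e-08). Csf1 (-2.22 ± 0.10, adjusted p = 3.84e-14), Ccl7 (-2.12 ± 0.12, adjusted p = 2.66e-12), Ccl2 (-2.09 ± 0.10, adjusted p = 7.03e-14), Ccl11 (-1.93 ± 0.14, adjusted p = 1.51e-10), Cxcl12 (-1.72 ± 0.29, adjusted p = 0.000108) and Cx3cl1 (-1.11 ± 0.16, adjusted p = 5.11e-06) fell less. Fibroblast markers moved with them: 17 of 18 were lower (13 lower and 1 higher with feeder-specific scaling), and feeder-specific genes stood at 4.14 to 4.74% of control feeders with ATN161, against 10.8 to 11.9% in control co-cultures. With feeder-specific scaling, an alternative added after the data were seen that shifted the median over all genes to 1.48, 7 of the 9 were lower. Of all 15389 genes tested, 12944 were higher and 811 lower under it. Among the 7 lower genes Cxcl1 stood at -3.07, Cxcl5 at -2.78 and Il6 at -1.57, and the other 4 at -0.81 to -0.53. Cxcl12 (-0.31, adjusted p = 0.105) and Cx3cl1, which turned to 0.30 (adjusted p = 0.0511), did not pass under it.

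ATN161 cultures were also set against feeder-removed cultures, both of ES cells by label. Here 8 of the 9 were lower, against 26.8% of all genes (28.6% were higher), with a median of -2.46 over the 9 and 0.03 over all genes. Ccl11 (-3.95 ± 0.14, adjusted p = 1.16e-15), Cxcl1 (-3.34 ± 0.16, adjusted p = 1.15e-13), Cxcl5 (-2.88 ± 0.13, adjusted p = 1.19e-13), Ccl2 (-2.63 ± 0.10, adjusted p = 4.31e-15) and Il6 (-2.46 ± 0.36, adjusted p = 5.38e-06) fell most. Ccl7 (-2.0 ± 0.12, adjusted p = 1.61e-11), Csf1 (-1.58 ± 0.10, adjusted p = 1.99e-11) and Cxcl12 (-1.32 ± 0.29, adjusted p = 0.00134) fell less, and Cx3cl1 did not pass (0.37 ± 0.18, adjusted p = 0.0909). With feeder-specific scaling (median of all genes 0.57, with 9957 of 15389 higher and 1467 lower) the 8 stayed lower, at -3.42 to -0.77. Cx3cl1 passed as higher under it, at 0.92. The genes scaled on were themselves chosen in part by their low levels in these 2 groups. The fibroblast markers summed to 1110 to 1227 CPM with ATN161, against 4674 to 5116 CPM after feeder removal. The 2 comparisons of ATN161 share the ATN161 libraries, and the 3 comparisons with control co-cultures share those, so their values are set side by side and not as separate evidence.

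**Figure D3:**
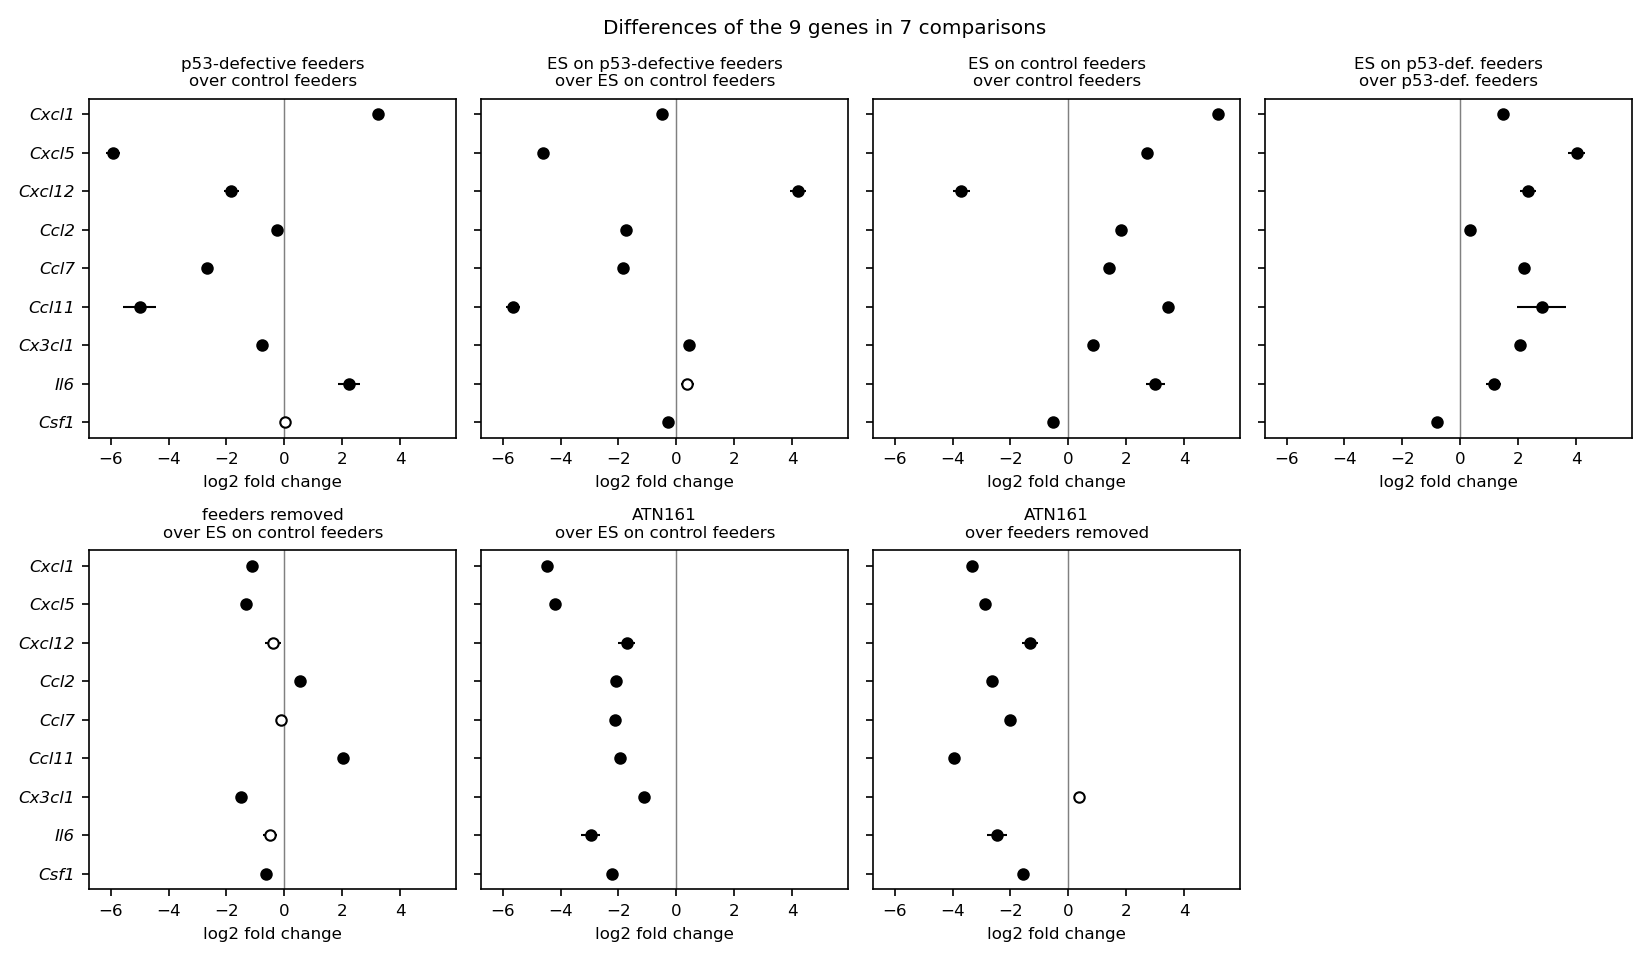
Log2 fold change (x axis) of the 9 genes in 7 comparisons, with standard errors as bars; filled points passed at an adjusted p below 0.05 and open points did not. With ATN161 all 9 points lie left of 0 against control co-cultures, while in the comparisons of feeders and co-cultures the genes lie on both sides.

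Cxcl12 and Csf1 are each measured as several transcripts, and the make-up of Cxcl12 differed between the feeders. The α transcript (NM_021704) held 35.9 ± 1.4% of the expected counts of Cxcl12 in p53-defective feeders, against 64.4 ± 2.1% in control feeders. The γ transcript (NM_001012477) held 19.2 ± 2.3% in p53-defective feeders, against 5.83 ± 0.75% in control feeders, and the β transcript (NM_013655) 44.9 ± 1.9%, against 29.8 ± 1.6%. None of these shares overlapped between the 2 feeder groups. In p53-defective co-cultures the α transcript held 55.3 ± 2%, against 71.8 ± 1.2% in control co-cultures. It held 75.7 ± 0.5% with ATN161 and 71.5 ± 3% after feeder removal. For Csf1 the transcript NM_007778 held 71.1 ± 0.49% in p53-defective co-cultures, against 85.2 ± 0.76% in control co-cultures, and NM_001113529 held 17.8 ± 1.1%, against 7.75 ± 0.99%. In p53-defective feeders NM_001113530 held 9.09 ± 1.5%, against 2.32 ± 0.33% in control feeders. The shares are the authors' estimates from reads that the transcripts partly share, and they were not tested. Il6 counts came almost wholly from NM_031168, at 95.3 to 100% in the group means.

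**Figure D4:**
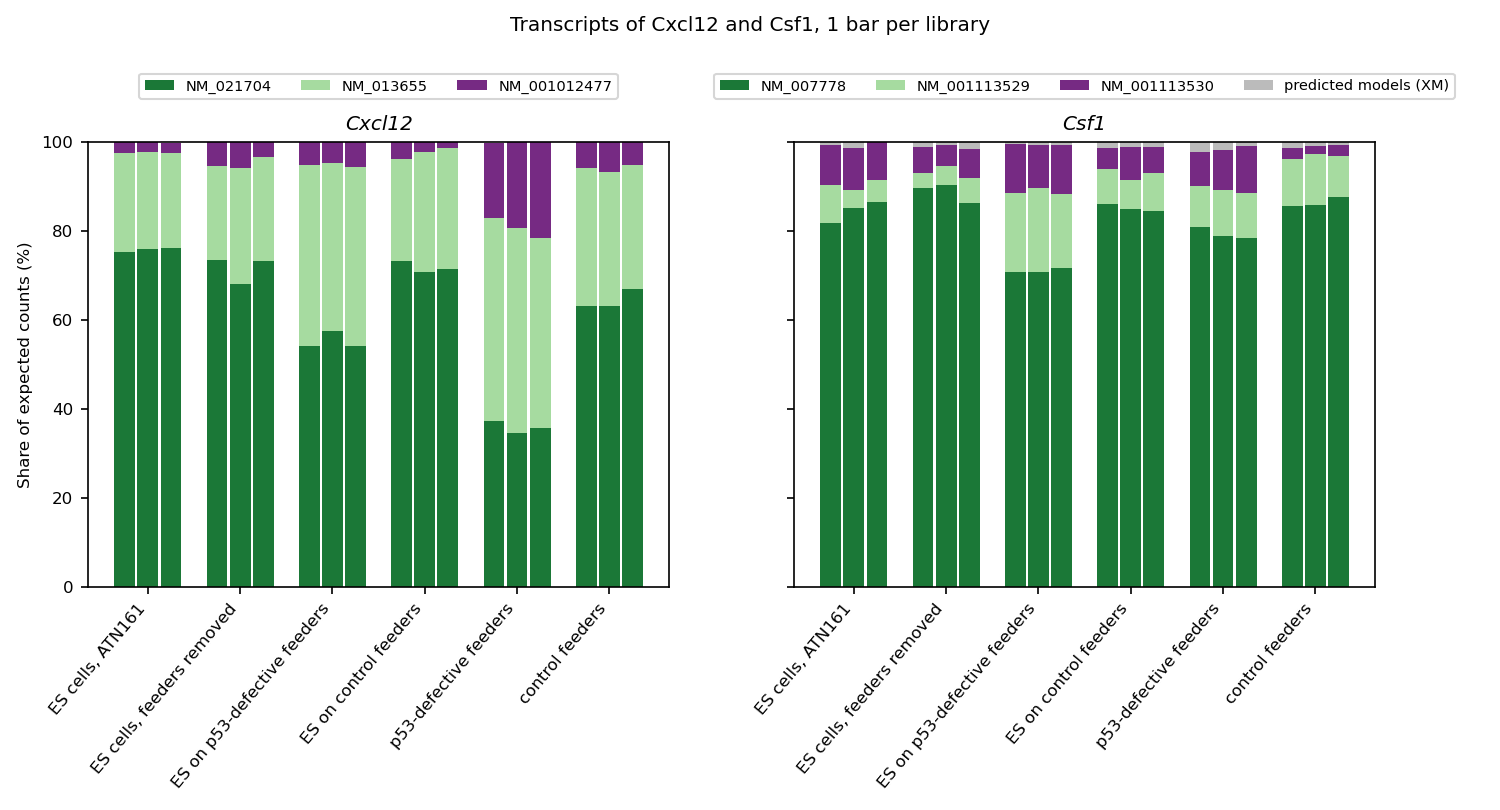
Share of the expected counts of Cxcl12 and of Csf1 held by each transcript (y axis, %), 1 bar per library, by group on the x axis. The γ transcript of Cxcl12, NM_001012477, is largest in p53-defective feeders at a mean of 19.2%, and NM_001113529 of Csf1 is largest in p53-defective co-cultures at 17.8%.

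Over the 6 groups, Ccl7 and Cxcl5 had the most similar profiles among the 9, with a root mean square difference of 0.159 between group means of log2 CPM scaled to unit SD, and Cxcl1 and Il6 came next (0.163). Ccl11 and Cxcl12 were the least alike (1.65). Among all 11523 candidate genes at 10 CPM or more in a group, the nearest to Ccl7 were Irf7 (0.13), Ddx58 (0.145) and Ifitm3 (0.152), and the nearest to Ccl2 were Ifi205 (0.248), Cfb (0.251) and Cxcl10 (0.304). Cxcl12 lay nearest to Ablim1 (0.0799), Pls3 (0.0907) and P4hb (0.0914), and Csf1 to Inpp1 (0.0634), Zfp608 (0.111) and Asah2 (0.132). Cxcl1 lay nearest to Steap4 (0.196), Cxcl5 to Pamr1 (0.15), Ccl11 to Ubl3 (0.0863), Cx3cl1 to Ift122 (0.202) and Il6 to Sprr2k (0.138). These likenesses rest on 6 group means each and are a description.

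The receptors of the 9 ligands include some best known from leukocytes. Of these, Ccr2 averaged 0 to 0.041 CPM, Cx3cr1 0 to 0.124 CPM and Cxcr2 0.103 to 0.367 CPM over the 6 groups. The shared signalling receptor Il6st averaged 76.6 CPM with ATN161, 140 CPM after feeder removal, 186 CPM in p53-defective co-cultures, 195 CPM in control co-cultures, 243 CPM in p53-defective feeders and 396 CPM in control feeders. Of the 7 receptors tested, all 7 were lower in p53-defective feeders than in control feeders, against 38.4% of all genes tested. Among them Csf1r, the macrophage receptor of Csf1, averaged 0.0813 CPM in p53-defective feeders, against 5.01 CPM in control feeders (-5.83 ± 0.38, adjusted p = 3.5e-12), beside the macrophage markers given above. Between the co-cultures Csf1r ran the other way, at 2.63 CPM in p53-defective co-cultures, against 0.0807 CPM in control co-cultures (4.91 ± 0.4, adjusted p = 1.3e-10). Of the 7 receptors, 3 were higher and 3 lower there, against 36.6% and 46.7% of all genes. Cxcr4 (-1.73) and the receptor Ackr4 (-2.62) were among the lower. The split was 1 higher and 5 lower with feeder-specific scaling, and 6 higher and 0 lower with ES-specific scaling. Ackr3, the scavenger of Cxcl12, averaged 7.99 CPM in p53-defective feeders, against 32.2 CPM in control feeders (-2.01 ± 0.14, adjusted p = 7.89e-12), but rose to 66.7 CPM in p53-defective co-cultures, against 7.99 CPM in p53-defective feeders (3.06 ± 0.14, adjusted p = 6.99e-15; 3.81 with feeder-specific scaling). Cxcr4 rose with ATN161, to 3.18 CPM, against 1.29 CPM in control co-cultures (1.3 ± 0.25, adjusted p = 0.000115; 2.71 with feeder-specific scaling).

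Other chemokines and NF-κB genes were counted from lists drawn up by function, with earlier results of these data known. Of 18 other chemokines tested, 0 were higher and 10 lower with ATN161 relative to control co-cultures, against 33.6% and 28.0% of all genes tested, with Cxcl9 at 0.408 against 11.9 CPM and Ccl5 at 1.09 against 12 CPM, both T cell attractants. Relative to feeder-removed cultures, 0 were higher and 8 lower, against 28.6% and 26.8% of all genes, with Cxcl10 at 4.41 against 31.2 CPM. With feeder-specific scaling, 5 were higher and 6 lower relative to control co-cultures and 2 higher and 8 lower relative to feeder-removed cultures. Of 35 genes of NF-κB and inflammatory signalling, 5 were higher and 26 lower with ATN161 relative to control co-cultures. Relative to feeder-removed cultures, 5 were higher and 23 lower. With feeder-specific scaling these splits were 22 higher and 9 lower, and 14 higher and 12 lower. That scaling also moved all 15389 genes tested, to 12944 higher and 811 lower relative to control co-cultures. Relative to feeder-removed cultures it gave 9957 higher and 1467 lower. Under it the median log2 fold change of the 35 was 0.81, against 1.48 over all genes, and 0.09, against 0.57, in the same order. The NF-κB inhibitor Tnfaip3 was at 2.59 CPM with ATN161, against 57.2 CPM in control co-cultures (-4.46 ± 0.14, adjusted p = 1.28e-16), and the mRNA decay factor Zfp36 at 11.9 CPM, against 225 CPM (-4.24 ± 0.09, adjusted p = 5.45e-20).

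In p53-defective feeders 18 of the 35 genes of NF-κB and inflammatory signalling were higher and 11 lower than in control feeders, against 35.9% and 38.4% of all genes, with Tnfaip3 at 52.1 CPM, against 3.97 CPM in control feeders (3.71 ± 0.13, adjusted p = 9.04e-17), and the adhesion receptor Icam1 at 2.45 CPM, against 86.2 CPM (-5.13 ± 0.12, adjusted p = 1.98e-20). Of 18 other chemokines, 4 were higher and 10 lower in p53-defective feeders than in control feeders. In the co-cultures, where 36.6% of all genes were higher and 46.7% lower, 7 of the 18 were higher and 8 lower in p53-defective co-cultures than in control co-cultures (3 and 13 with feeder-specific, 10 and 3 with ES-specific scaling). Of all 15389 genes, 434 were higher and 14366 lower there with feeder-specific scaling, and 13504 and 411 with ES-specific scaling. Of 18 other cytokines, 9 were higher and 8 lower in p53-defective co-cultures, where the alarmin Il33 averaged 210 CPM, against 12.2 CPM in control co-cultures (4.11 ± 0.13, adjusted p = 8.84e-18). The split of these cytokines was 2 higher and 13 lower with feeder-specific and 15 higher and 0 lower with ES-specific scaling, and Il33 stood at 1.65 and 7.49. With ATN161, 0 of these 18 cytokines were higher and 13 lower than in control co-cultures, against 33.6% and 28.0% of all genes tested. Among the 13 was the stem cell factor gene Kitl at 4 CPM, against 32.4 CPM (-3.01 ± 0.14, adjusted p = 3.77e-14). With feeder-specific scaling 6 of the 18 were higher and 6 lower, where 12944 of 15389 genes were higher and 811 lower. Cxcl9 (-3.45), Ccl5 (-2.05), Tnfaip3 (-3.06), Zfp36 (-2.84) and Kitl (-1.6) remained lower than in control co-cultures under that scaling, as did Cxcl10 (-2.28) relative to feeder-removed cultures. After feeder removal, 1 of 35 NF-κB genes was higher and 17 lower than in control co-cultures, against 25.5% and 26.5% of all genes. Zfp36 was at 102 CPM, against 225 CPM (-1.14 ± 0.07, adjusted p = 1.81e-10, and -0.27 with feeder-specific scaling). Under that scaling 25 of the 35 were higher and 1 lower, where 11942 of 15389 genes were higher and 343 lower. In control co-cultures relative to control feeders 14 of the 35 were higher and 19 lower, against 44.3% and 39.9% of all genes. With feeder-specific scaling 35 were higher and 0 lower, where 14555 of 15389 genes were higher and 281 lower. In p53-defective co-cultures relative to p53-defective feeders 18 of the 35 were higher and 10 lower, against 46.7% and 33.0% of all genes. With that scaling 25 were higher and 5 lower, where 10339 of 15389 genes were higher and 2256 lower.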

How the data were processed

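Per the labels, RNA extracted in Trizol went into the TruSeq mRNA kit; whether strand was kept is not given in the sources used here. The submitters' processing notes list StringTie 1.3.3b, HISAT2 2.1.0, DESeq2 1.2.10 and SAMtools 1.4 (no roles given) and the build mm10, or GRCm38. The authors deposited expected counts for 75416 RefSeq transcripts, with FPKM, TPM and normalised counts (a signal scaled by the authors, not used) beside them; TPM was used for levels per length and ranks, which FPKM did not change. Expected counts were summed per Entrez gene and rounded (89.3% of sums above 0 were whole within 0.05). Groups were compared in R 4.3.3 by quasi-likelihood tests in edgeR 4.0.16 (TMM, filterByExpr, robust, two-sided), all 18 libraries in 1 fit, 1 coefficient per group; the common biological coefficient of variation was 0.0792. The script was tested on simulated data. Levels are TMM-scaled CPM. Genes at 10 CPM or more in both feeder groups, and there 8-fold or more above both the ATN161 and the feeder-removed cultures, were taken as feeder-specific, and ES-specific genes conversely.

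The 9 genes and all lists were chosen with earlier results of these data known. Of each list, up to 3 genes per comparison with the largest change among those called and at 1 CPM or more could be named, and for each of the 9 the 3 most similar profiles (log2 CPM, prior count 2). Alternatives were the size factors and Wald test of DESeq2 1.42.0, limma-voom (limma 3.58.1), no filter, at least 5 CPM in 3 libraries, the replicate number as a block, only the groups compared, each library left out, curated transcripts only, and scaling on feeder-specific genes; scaling on ES-specific genes, feeder-specific scaling for ATN161 and transcript shares from TPM were added after seeing the data.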

Additional observations from a re-analysis of the deposited data

Results flagged for a closer look

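For 7 of the 9 genes the effect of the feeder label differed between co-cultures and feeders alone, by a test of the difference itself in edgeR. The log2 difference (co-culture effect minus feeder effect) was -3.71 for Cxcl1, 1.3 for Cxcl5, 6.04 for Cxcl12, -1.49 for Ccl2, 0.82 for Ccl7, 1.2 for Cx3cl1 and -1.86 for Il6. Of all genes tested, 38.8% passed with a positive and 34.8% with a negative difference. The difference for Cxcl5 was 2.22 without replicate 3 of the p53-defective feeders. With feeder-specific scaling the values for Cxcl5, Ccl7 and Cx3cl1 changed sign, to -0.91, -1.37 and -0.98. Beside these differences, all 18 fibroblast markers and 15 of 17 macrophage markers tested passed with a positive difference, as did 1 of 16 ES cell markers, while 4 of the 16 were negative. With feeder-specific scaling 14 fibroblast markers were positive and 1 negative, and 13 macrophage markers were positive and 0 negative. The part of these markers was not tested.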

How the results depend on the processing

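Over the 72 fold changes of the 9 genes and their 1125 alternative values, 1071 kept direction and side of the threshold, 20 lost a call, 14 gained one and 20 changed sign. Csf1 in p53-defective over control feeders, at 0.01, stood at -0.01 with limma-voom, 0.00 with a replicate block, 0.00 with only the groups compared, -0.04 without control feeders replicate 1 and from -0.16 (without p53-defective feeders replicate 3) to 0.17 over the libraries left out. With feeder-specific scaling the changed signs were Cx3cl1 -2.04 and Il6 -2.07 between co-cultures, Csf1 2.39 in control co-cultures over control feeders, Cxcl12 0.46, Ccl7 0.74, Il6 0.36 and Csf1 0.23 after feeder removal, Cx3cl1 0.30 with ATN161 over control co-cultures, and Cxcl5 -0.91, Ccl7 -1.37 and Cx3cl1 -0.98 for the difference between contrasts. With ES-specific scaling Cxcl1 was 2.90, Ccl2 1.64, Ccl7 1.54 and Csf1 3.12 between co-cultures. Scaling changes the reference level of all genes by construction; for the rest the cause was not tested. Over all genes, feeder-specific scaling moved the split of higher and lower calls to 434 and 14366 between co-cultures (36.6% and 46.7% of all genes before), 10339 and 2256 in p53-defective co-cultures over p53-defective feeders (7187 and 5078 before), 14555 and 281 in control co-cultures over control feeders (6822 and 6142), 11942 and 343 after feeder removal (3924 and 4077), 995 and 11805 for the difference between contrasts (5975 and 5352), and 12944 and 811 with ATN161 over control co-cultures (5176 and 4307) and 9957 and 1467 over feeder-removed cultures (4406 and 4121); ES-specific scaling gave 13504 and 411 between co-cultures. Between co-cultures, Cx3cl1 lost its call with curated transcripts only (adjusted p = 0.0514; range over alternatives with the genes scaled on unchanged 0.000471 to 0.0514), and Il6 gained one with only the groups compared (0.50, adjusted p = 0.0155; range 0.0155 to 0.362). How many of the 9 were called stayed within 1.5 times the main count under every alternative run, and so did the number called of all genes under those that kept the genes scaled on.

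With TPM in place of expected counts the share of Cxcl12 NM_021704 was 85.6% (ATN161), 83.2% (feeders removed), 70.4% and 82.8% (p53-defective and control co-cultures), 54.2% and 78.1% (p53-defective and control feeders), and that of Csf1 NM_007778 was 76.9%, 83.3%, 61.9%, 79.1%, 71.5% and 82.1% in the same order, since TPM divides by transcript length.

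Libraries of equal replicate number showed little correlation in their deviations from group means (45 pairs of libraries, correlations -0.11 to 0.22, median -0.01). The highest value, 0.22, was between p53-defective and control feeders of replicate 3. With 3 libraries a group, these values cannot show whether the libraries were paired. The replicate block gave 8 of the 9 genes called between feeders and 8 between co-cultures, as without it, and changed no call. Depth limits Ccl11 in p53-defective feeders (2 counts in all) and Il6 in control feeders (3 to 10 counts a library).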
